A study of Mus musculus with 31 samples.

Results

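The thymus of untreated mice with 1 intact copy of NDR1 was compared with that of mice with both copies. NDR1 is a protein kinase, and its gene is named Stk38 in the mouse. The heterozygous mice are labelled NDR1+/- and called HT here, and the wild-type mice are labelled NDR1+/+ and called WT. The arrays were chosen by their titles, which gave 4 HT and 4 WT arrays, 8 of the 31 arrays of the series. Each genotype had 2 female and 2 male arrays, numbered F_01, F_02, M_01 and M_02. All mice were of strain C57BL/6, untreated and labelled normal, and the sources used here do not give their age. The titles speak of thymocytes, whereas the tissue and source labels name the thymus. A further 4 arrays from homozygous NDR1-/- thymus, called KO, shared the estimate of spread. The other 19 arrays were from tumors of mice given ENU, an alkylating mutagen. The labels do not say which part of Stk38 is altered, whether the alteration is in every tissue, or whether each array came from its own animal. The p-values therefore measure the spread between these arrays, which may be partly technical.

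NDR1 and its close relative NDR2 (gene Stk38l) belong to the NDR and LATS family of serine/threonine kinases. They are switched on by MST kinases of the Hippo pathway together with MOB co-activators, and the large FRY scaffold proteins bind them. In T cells the MST kinases and MOB1 are known for thymocyte selection, adhesion and the exit of mature cells from the thymus. NDR1 is known from mouse work as a brake on T cell lymphoma, with a link to the pro-apoptotic protein BIM (gene Bcl2l11). The thymus itself consists mostly of CD4+CD8+ double-positive thymocytes, held in a network of epithelial cells, macrophages and dendritic cells.

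Values were log2(intensity + 1), where intensity is the normalized brightness of a probe set, a group of short probes against 1 transcript. A gene was read at the probe set that averaged highest across the 31 arrays, its main probe set, and 13644 of 18193 genes passed a filter on low values. T lineage genes were bright on every array, at 13.41 to 13.88 for Dntt and 14.26 to 14.50 for Cd8b1 in HT thymus, against 13.47 to 13.89 and 14.26 to 14.36 in WT thymus. Rag1, a recombinase of antigen receptor genes, lay at 14.61 to 14.75 in HT and 14.59 to 14.88 in WT arrays. The summed intensity of 13 double-positive genes spanned 143700 to 155500 in HT and 148200 to 159100 in WT arrays. Correlations over genes between the 8 HT and WT arrays were 0.993 to 0.996 within a sex and 0.986 to 0.991 between the sexes. Male and female thymus differed in 3680 genes at adjusted p under 0.05 (limma, 12 thymus arrays), which is 27% of those tested. The log2 ratio of 3' to 5' actin probe sets, a measure of RNA integrity, was 0.549 to 0.717 in HT and 0.604 to 0.967 in WT arrays.

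Stk38, the targeted gene, was lower in every HT array than in any WT array at its main probe set. It had values of 11.48, 11.58, 11.37 and 11.33 in HT thymus, against 11.91, 12.03, 11.69 and 11.81 in WT thymus. In intensity this is 2784 ± 224 in HT and 3729 ± 382 in WT thymus (SD, n = 4 each), so that the HT mean was 74.7% of the WT mean. KO thymus had 1973 ± 465 (SD, n = 4), or 52.9% of WT. The difference was -0.42 on the log2 scale, and a two-sided exact permutation test of 4 against 4 arrays gave 0.0286, the smallest p its 70 rearrangements allow. Permuted within each sex, the same test gave its smallest possible p of 0.0556. Over all genes the limma adjusted p was 0.484. The other Stk38 probe sets gave no difference beyond their spread. One differed by -0.02 (exact permutation p = 0.943) and one by -0.0014 (exact permutation p = 1). The sources used here do not show where the probes lie relative to the altered part of the gene, so the residual signal in HT and KO arrays cannot be read as intact transcript.

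Across all genes, HT and WT thymus were close. Of 13644 genes, 3 passed an adjusted p of 0.05 (limma with Benjamini-Hochberg adjustment), which is 0.022%. Nron rose and Baiap3 fell in HT thymus, and Zfp945 rose at its main probe set but not at another of similar brightness. The median difference was 0.01 and the middle 90% of genes lay between -0.22 and 0.29 on the log2 scale, with a median standard error of 0.111. The 95% interval of the difference lay wholly within -0.5 to 0.5 for 10810 genes (79.2%) and within -1 to 1 for 13417 genes (98.3%). The median SD between arrays of a group was 0.175 in HT and 0.173 in WT thymus. At an unadjusted p under 0.05, 573 genes were higher in HT (4.2%) and 355 lower (2.6%). All 4 HT arrays lay above all 4 WT arrays for 210 genes (1.54%) and below them for 131 (0.96%), together 2.5%. For comparison, 26 genes (0.191%) passed the threshold between KO and WT thymus, a comparison that shares the WT arrays.

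**Figure D1:**
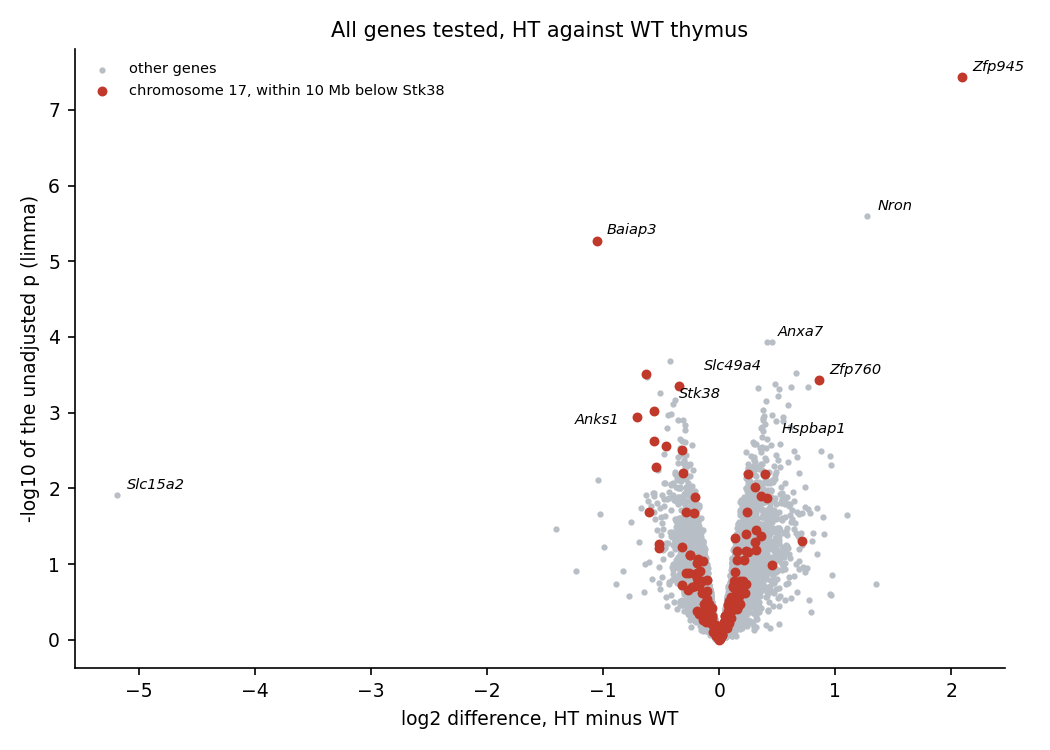
Each dot is 1 of 13644 genes, with the log2 difference of HT minus WT thymus (4 arrays each) across and -log10 of the unadjusted limma p upward. Red dots are the 167 genes tested in the 10 Mb before Stk38 on chromosome 17, among them Zfp945 and Baiap3, and grey dots are all other genes, among them Nron and, far to the left, Slc15a2 at -5.19.

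Zfp945 encodes a zinc finger protein and lies on chromosome 17 (positions 22846697 to 22867309, GRCm38.p6), 6.12 Mb before Stk38, which here means at lower coordinates than its lower end (28970880). Its main probe set read 8.50, 8.23, 7.39 and 8.14 in HT thymus, against 6.11, 6.20, 5.71 and 5.87 in WT thymus. The groups were 1 log2 unit or more apart at their nearest arrays. The mean was 8.07 ± 0.474 in HT and 5.97 ± 0.224 in WT (SD, n = 4 each). This is a log2 difference of 2.09 ± 0.16 (SE), or 4.27-fold, with a limma adjusted p of 0.000508. The difference was 2.21 between females and 1.98 between males. Its 3 probe sets disagreed, however. The weakest was higher in HT by 0.66. The other averaged 6.66 over all 31 arrays, against 7.20 for the main one, but was the brighter of the pair in WT thymus. It was lower in HT thymus, where the main one was higher. It read 8.26, 8.14, 7.01 and 7.79 in HT thymus, against 8.53, 8.87, 8.10 and 8.85 in WT thymus, a difference of -0.79. Read at that probe set, which is the brightest over the 8 HT and WT arrays, Zfp945 did not pass the threshold (limma adjusted p = 0.718). With the mean of the probe sets, Zfp945 differed by 0.66 and did not pass the threshold (limma adjusted p = 0.749). The zinc finger genes of this cluster resemble each other in sequence, and the files do not show whether a probe set reads more than 1 of them.

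Nron is a long non-coding RNA, known as a repressor of the transcription factor NFAT, which T cell receptor signals activate. Its gene lies on chromosome 2 (positions 33805816 to 33813591), unlinked to Stk38. The single probe set read 7.87, 7.90, 7.94 and 8.33 in HT thymus, against 6.89, 6.37, 6.61 and 7.06 in WT thymus. Every HT array exceeded every WT array, and the difference was 1.25 between females and 1.30 between males. The log2 difference was 1.28 ± 0.15 (SE), or 2.42-fold, with a limma adjusted p of 0.0171. NFAT family members Nfatc1 and Nfatc2, at their main probe sets, differed by 0.02 and -0.0044.

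Baiap3, a C2-domain protein related to the MUNC13 family and known for dense-core vesicle release, lies on chromosome 17, 3.73 Mb before Stk38. Its single probe set read 6.45, 6.13, 6.58 and 6.28 in HT thymus, against 7.37, 7.41, 7.74 and 7.16 in WT thymus. The groups did not overlap, and both sexes showed it, at -1.10 in females and -1.02 in males. The log2 difference for Baiap3 was -1.06, with a standard error of 0.13 and a limma adjusted p of 0.0244, so that HT thymus had 0.481 of the WT level. In KO thymus the gene lay further down, at 3.72 below WT on the log2 scale, against 1.06 below WT in HT thymus.

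**Figure D2:**
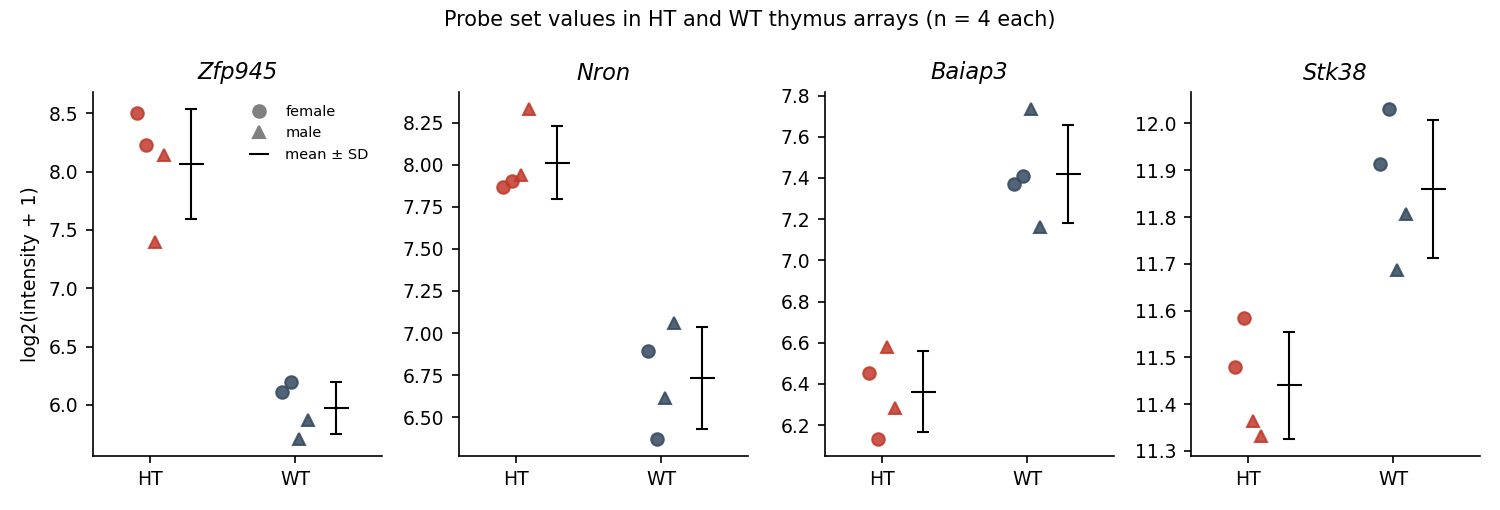
Log2(intensity + 1) of Zfp945, Nron, Baiap3 and Stk38 at their main probe sets in each of the 4 HT arrays (red) and 4 WT arrays (blue), with circles for females, triangles for males and a bar for the mean ± SD. The 2 genotypes do not overlap in any of the 4 panels, and the gap at Stk38 is the smallest, at a mean difference of -0.42.

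The 3 calls differed in how far they held. Zfp945 passed in 21 of 23 alternative settings, Nron in 14 and Baiap3 in 12. The direction of Zfp945 turned in 1 of the 23, the choice of the probe set by the 8 HT and WT arrays. The calls for Nron and Baiap3 needed the KO arrays, which add to the estimate of spread. In a limma fit of the 8 HT and WT arrays alone the adjusted p was 0.0853 for Nron and 0.162 for Baiap3, with the same differences, while Zfp945 still passed. Leaving out any 1 of 5 arrays ended the call for Nron (WT F_02 and M_01, HT F_01, F_02 and M_02), with an adjusted p of up to 0.249 over all settings, while its difference stayed between 1.17 and 1.40. Leaving out any array other than WT M_02 ended that for Baiap3, with an adjusted p of up to 0.164, while its difference stayed between -1.27 and -0.94.

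The 250 bases before a first transcribed base given by RefSeq are shown for these 3 genes and for the neighbours Slc49a4 and Hspbap1, which are described below. They come from RefSeq on GRCm38.p6, are written 5' to 3' on the gene's own strand, and hold a few classical core promoter words in capitals. The words searched on both strands were the TATA box TATAAA, the CCAAT box CCAAT and the GC box GGGCGG, none of which can overlap another here. They occur in 12.4%, 33.8% and 32.7% of all 32851 RefSeq promoter windows of this length, in that order. The windows are chr17:22867135-22867384 (minus strand), chr2:33805566-33805815 (plus strand), chr17:25256365-25256614 (minus strand), chr16:35769371-35769620 (minus strand) and chr16:35770136-35770385 (plus strand).
Zfp945: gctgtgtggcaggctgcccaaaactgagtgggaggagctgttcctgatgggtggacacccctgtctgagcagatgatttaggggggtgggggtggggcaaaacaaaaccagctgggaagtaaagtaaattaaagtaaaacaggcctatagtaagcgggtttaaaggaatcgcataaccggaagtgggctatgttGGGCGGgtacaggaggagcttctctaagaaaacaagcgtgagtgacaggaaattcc
Nron: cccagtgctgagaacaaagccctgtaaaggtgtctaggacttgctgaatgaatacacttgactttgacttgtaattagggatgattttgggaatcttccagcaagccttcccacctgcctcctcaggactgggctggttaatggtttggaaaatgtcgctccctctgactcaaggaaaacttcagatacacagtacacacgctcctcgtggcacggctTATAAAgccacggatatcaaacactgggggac
Baiap3: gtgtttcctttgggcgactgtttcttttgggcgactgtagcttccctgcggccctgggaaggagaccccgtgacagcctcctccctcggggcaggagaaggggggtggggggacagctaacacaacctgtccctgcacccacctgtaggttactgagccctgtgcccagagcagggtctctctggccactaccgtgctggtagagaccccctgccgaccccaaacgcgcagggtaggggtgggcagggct
Slc49a4: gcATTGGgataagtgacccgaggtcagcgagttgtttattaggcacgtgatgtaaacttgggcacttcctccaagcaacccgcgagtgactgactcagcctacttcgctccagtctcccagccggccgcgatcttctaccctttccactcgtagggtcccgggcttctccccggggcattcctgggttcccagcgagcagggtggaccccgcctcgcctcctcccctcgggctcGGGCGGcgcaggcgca
Hspbap1: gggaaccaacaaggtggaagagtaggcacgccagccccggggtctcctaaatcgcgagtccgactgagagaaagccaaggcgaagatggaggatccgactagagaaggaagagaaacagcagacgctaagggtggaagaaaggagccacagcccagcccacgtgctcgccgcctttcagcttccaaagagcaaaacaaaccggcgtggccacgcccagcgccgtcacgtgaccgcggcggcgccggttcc
Zfp945 has 1 GC box, Nron has 1 TATA box, Baiap3 has none of the 3 words, Slc49a4 has 1 CCAAT box (read as ATTGG) and 1 GC box, and Hspbap1 has none. The windows of Slc49a4 and Hspbap1 are rich in CpG dinucleotides, with 20 and 22, against a median of 6 over all windows, and 5, 5 and 9 in those of Zfp945, Nron and Baiap3. Their GC contents are 63.6% and 61.6%, against 50.8%, 48.4% and 64.4%, and a median of 52.4% over all windows. The RefSeq spans of Zfp945 and Hspbap1 reach further out than the transcript starts used here, so that 175 and 250 bases of their windows lie inside the gene's span. These matches describe the letters in the windows and nothing about factors that bind there.

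Chromosome 17, which carries Stk38, held the largest share of genes with separate HT and WT arrays among the chromosomes with over 20 genes tested, although not the largest number. Of 688 genes tested there, 28 had groups that did not overlap (4.07%), against 1.39% to 3.15% on the other 19 chromosomes compared and 2.5% over all genes. They were not spread evenly. In the 10 Mb before Stk38, 17 of 167 genes were apart (10.2%) and 27 had an unadjusted p under 0.05 (16.2%). In the 10 Mb after it, 2 of 196 were apart (1.02%) and 15 had an unadjusted p under 0.05 (7.65%). Over all genes, 6.8% had an unadjusted p under 0.05. Both chromosome 17 genes past the threshold lay in the stretch before Stk38. Of the 17 genes, 8 were higher and 9 lower in HT thymus, and 12 had an unadjusted p under 0.05. With any single array left out, 11.4% to 16.8% of the genes in this stretch were apart, against 3.65% to 7.59% of all genes. Of these removals, that of WT M_02 brought the shares closest, at 12.6% against 7.59%. Without HT F_01 and WT M_02 together, the shares were 16.8% in this stretch and 10.9% over all genes.

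These 17 genes form a few groups along the chromosome. Furthest out, at 7.44 to 5.80 Mb before Stk38, lie the zinc finger genes Zfp52, Zfp760, Zfp945 and Zfp40. Zfp760 read 8.36 to 8.60 in HT and 7.04 to 8.09 in WT arrays, a difference of 0.86 with an unadjusted p of 0.000369. Zfp52 read 7.66 to 8.31 in HT and 8.39 to 8.83 in WT arrays, at -0.63, and its other probe set differed by -0.82. Zfp40 read 7.54 to 7.99 in HT and 8.23 to 8.64 in WT arrays, at -0.56. All 4 of its probe sets lay lower in HT, by 0.48 to 0.67. Thus of these 4 zinc finger genes 2 had higher and 2 lower main values in HT thymus, and Zfp945 alone passed the threshold.

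A second group lies between 5.30 and 3.15 Mb before Stk38. Beside Baiap3 it holds Gnptg, a subunit of the enzyme that tags lysosomal proteins with mannose phosphate, at 7.18 to 7.80 in HT and 7.89 to 8.17 in WT arrays. Telo2, which helps to assemble the kinases of the ATM and mTOR family, read 6.64 to 6.90 in HT and 6.93 to 7.36 in WT arrays. Gfer, a sulfhydryl oxidase of the mitochondrial intermembrane space, read 8.30 to 8.58 in HT and 8.61 to 8.73 in WT arrays. Pgp, a phosphoglycolate phosphatase, and Spsb3, an adaptor of ubiquitin ligases, differed by -0.21 and -0.14. The other members of the group had small positive differences, of 0.13 to 0.25 (Tnfrsf12a, Ift140, BC003965, Ciao3, Antkmt and Wdr24). The last of the 17, Anks1, an adaptor protein with ankyrin repeats, lies 1.06 Mb before Stk38. It read 7.40, 7.34, 7.47 and 7.03 in HT thymus, against 7.85, 8.36, 7.97 and 7.91 in WT thymus. The Anks1 difference was -0.71 (SE 0.16), with a limma adjusted p of 0.484. Cramp1l, a chromatin protein that is also on chromosome 17, had one of its 6 smallest p-values, at -0.35, although its groups overlapped.

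The genes next to Stk38 showed no such separation. The 5 tested genes on the near side were Mapk13, Brpf3, Pnpla1, Bnip5 and Kctd20, and the 5 on the far side Srsf3, Cdkn1a, Rab44, Cpne5 and Ppil1. All 10 had overlapping groups. Mapk13, a p38 kinase, read 3.72 to 4.01 in HT and 3.67 to 3.88 in WT arrays, which is close to the filter's cutoff of 3.65. Cdkn1a, the cell cycle inhibitor p21, read 5.10 to 5.70 in HT and 5.22 to 5.81 in WT arrays. Srsf3, a splicing factor, lay at 13.68 to 13.97 in HT and 13.80 to 13.95 in WT arrays. Cpne5, a calcium-dependent membrane-binding protein, differed most, by 0.41 with an unadjusted p of 0.0346 and a limma adjusted p of 0.721. The labels do not give the origin of the chromosome around the altered Stk38 allele, and neighbouring sequence that travels with the allele and the missing copy itself cannot be told apart in this design.

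**Figure D3:**
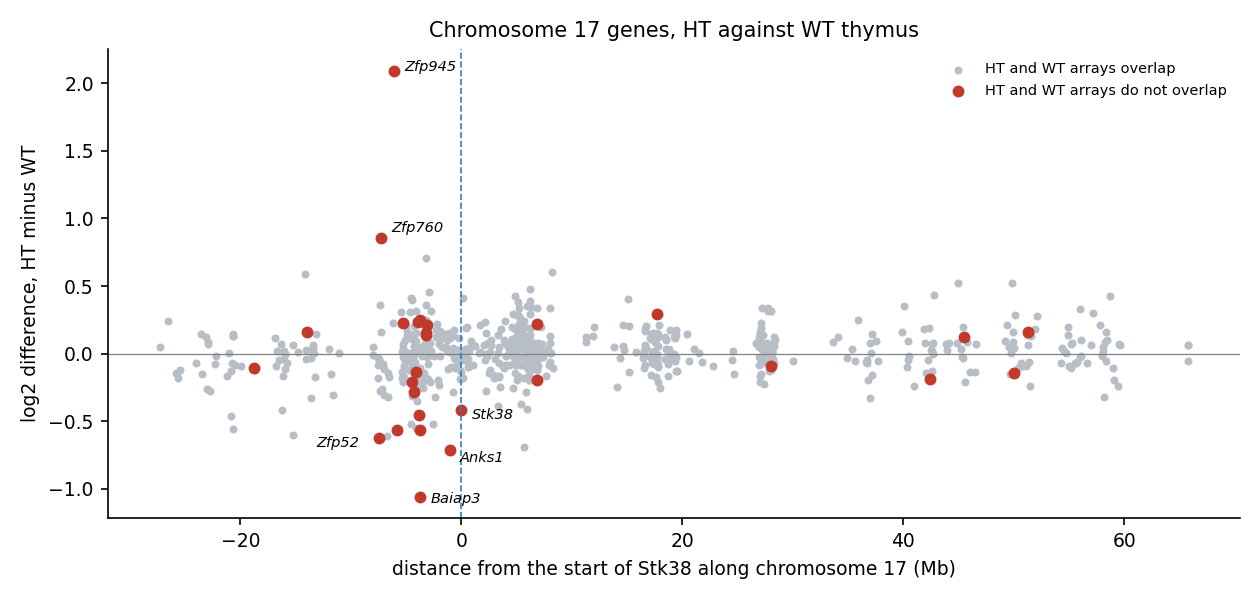
Log2 difference of HT minus WT thymus for 688 genes of chromosome 17, by distance in Mb from the start of Stk38 (dashed line). Red dots are the 28 genes whose 4 HT and 4 WT arrays do not overlap, of which 17 lie in the 10 Mb before Stk38 and 2 in the 10 Mb after it.

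On chromosome 16, a pair of adjacent genes stood apart in the same direction. The chromosome as a whole had 10 of 443 tested genes with separate groups (2.26%), against 2.5% over all genes. Slc49a4, a transporter of the lysosomal membrane, read 7.72, 7.56, 8.30 and 8.09 in HT thymus, against 7.11, 7.39, 7.26 and 7.43 in WT thymus. Its log2 difference was 0.62 (SE 0.13), with a limma adjusted p of 0.417. Its other probe set read 4.89, 4.71, 4.53 and 4.67 in HT thymus, against 4.46, 4.26, 4.46 and 4.16 in WT thymus. Hspbap1, whose product binds the small heat shock protein HSP27, was named after its values were seen. It read 6.22, 6.31, 6.69 and 6.36 in HT thymus, against 6.08, 5.74, 6.05 and 5.91 in WT thymus, a difference of 0.45 with a limma adjusted p of 0.484. The pair is transcribed in opposite directions, and their first transcribed bases, just after the windows printed above, are 1016 bases apart. Their tested neighbours Pdia5 and Parp14, at -0.16 and 0.04, had overlapping groups. In KO thymus the pair lay at 1.59 and 1.03 above WT.

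Slc15a2, a peptide transporter 1.06 Mb from Slc49a4, had the largest difference of all genes and was also named after its values were seen. It read 4.39, 10.92, 3.79 and 4.03 in HT thymus, against 10.24, 11.78, 11.33 and 10.52 in WT thymus. Thus 3 HT arrays were close to the filter's cutoff and HT F_02 lay among the WT values. The mean was 5.78 ± 3.44 in HT and 10.97 ± 0.71 in WT (SD, n = 4 each), and the difference of -5.19 had a limma adjusted p of 0.699. In KO thymus the gene read 4.50, 4.30, 10.69 and 3.73. Both mutant genotypes thus held arrays of either kind, and no WT thymus array was low. The other genes between Slc49a4 and Slc15a2 had overlapping groups, Hspbap1 excepted.

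Outside these regions, the genes with the smallest p-values had modest differences that did not pass the threshold. The limma adjusted p was 0.323 for Anxa7 and Tmem42 and 0.417 to 0.484 for the others named here. Anxa7, a calcium-dependent membrane-fusing annexin, read 11.04, 11.05, 11.07 and 11.20 in HT thymus, against 10.65, 10.55, 10.72 and 10.79 in WT thymus. Its difference of 0.41 was the only one of a named gene beyond the 3 above to pass in an alternative setting, with a trended and robust variance estimate (limma adjusted p = 0.0266). Its other 2 probe sets differed by 0.02 and 0.10. Ndufs5, a subunit of respiratory complex I, read 11.93, 11.63, 12.02 and 11.62 in HT thymus, against 10.87, 10.89, 11.34 and 11.45 in WT thymus, a difference of 0.66. Mir22hg, the host transcript of miR-22, read 8.62, 8.50, 8.07 and 8.28 in HT thymus, and 7.999 at most in WT thymus, a difference of 0.48. Nhsl1 was higher by 0.34, also without overlap. Tmem42, Rptoros, Ccdc173 and Itgb7 differed by 0.46 to 0.77, with groups that overlapped.

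Among the lower ones, Clasp2, which stabilises microtubule plus ends, read 8.61, 8.49, 8.77 and 8.69 in HT thymus, against 9.14, 9.27, 9.31 and 9.33 in WT thymus. Its difference was -0.62, and all 5 of its probe sets lay lower in HT, by 0.02 to 0.85. Plpbp, a pyridoxal phosphate carrier, read 10.06 to 10.17 in HT and 10.40 to 10.63 in WT arrays, at -0.40. Hcn2, a pacemaker ion channel, Prrt3 and 1700042G07Rik were apart by -0.39, -0.44 and -0.51, but all their values were below 4.5 and so near the filter's cutoff. Dmpk, a kinase related to the NDR family, was lower by 0.43 at a similar level, with groups that overlapped.

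In 10 genes the mean difference exceeded 1 on the log2 scale, of which 3 passed the threshold. The others were named after their values were seen, and beside Slc15a2 they are the following. Cap1, an actin-binding protein, read 9.00 to 11.92 in HT and 11.59 to 12.60 in WT arrays. Vcl, the adhesion protein vinculin, read 5.92 to 6.56 in HT and 6.15 to 7.85 in WT arrays. Clec16a, a regulator of autophagy, read 5.48 to 6.74 in HT and 6.75 to 7.83 in WT arrays. Alas2 of heme synthesis, Cbr2 and the neutrophil granule peptide Camp spread over 2 log2 units or more within a genotype, at 4.02 to 8.17, 4.64 to 8.59 and 4.84 to 7.32 in HT, against 3.73 to 7.32, 3.99 to 7.54 and 5.95 to 9.13 in WT arrays.

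The kinases and partners of the NDR pathway had no member past the threshold. Of 15 genes listed, 14 were tested, and Stk38 alone had an unadjusted p under 0.05. The list's median difference was -0.08, against 0.01 over all genes. Of its 14 members, Stk38 included, 3 had a difference above 0, against 54.3% of all genes. The list's mean level overlapped between the groups, at 10.205 to 10.416 in HT and 10.36 to 10.422 in WT arrays. Stk38l, the gene of NDR2, read 6.70, 6.84, 7.54 and 7.42 in HT thymus, against 6.91, 7.10, 7.71 and 7.41 in WT thymus. The groups overlapped at this main probe set, and the difference was -0.15, with a 95% interval of -0.47 to 0.16. The other Stk38l probe sets had the opposite sign, at 0.05 and 0.34 (limma unadjusted p = 0.754 and 0.0774). Stk4, the kinase MST1, differed by -0.11, and the MOB co-activators Mob1a, Mob1b and Mob2 by -0.09, -0.08 and 0.0048. The MST-related kinases Stk24, Stk25 and Stk26 differed by -0.03, 0.47 and -0.10. The scaffolds Fry and Fryl differed by -0.24 and -0.07, the MST partner Sav1 by -0.12, and the RASSF proteins Rassf1 and Rassf5 by 0.06 and -0.04.

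Reported NDR substrates and downstream genes gave 11 tested members, of which none passed the threshold, with a median of -0.115. Ccnd1, the G1 cyclin D1, read 6.49, 5.86, 6.37 and 5.92 in HT thymus, against 6.10, 5.73, 5.12 and 5.55 in WT thymus, and had the list's only unadjusted p under 0.05 (0.0244). The p21 and p27 inhibitors, Cdkn1a and Cdkn1b, differed by -0.05 and -0.16, and Myc by 0.08. YAP and TAZ branch genes gave 11 tested members with a median of -0.08, of which Axl, a receptor kinase that macrophages also carry, had a difference of 0.57. The kinases Lats1 and Lats2 of that branch differed by -0.13 and -0.22.

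Cell death genes had no member past the threshold. Bcl2l11, the gene of BIM, read 12.16, 12.11, 11.82 and 11.80 in HT thymus, against 12.28, 12.35, 12.19 and 11.87 in WT thymus. Its difference at this main probe set was -0.20, with an unadjusted p of 0.0382 and a limma adjusted p of 0.721, and the groups overlapped. The other Bcl2l11 probe sets differed by -0.10, -0.31, -0.06 and 0.15. Bad, another pro-apoptotic member, differed by 0.32, and the other 7 of the 9 tested by -0.14 to 0.17. Bcl2, Bcl2l1 and Mcl1, which hold thymocytes alive, each differed by -0.01, and the interval for Mcl1 was -0.19 to 0.18. The 11 tested p53 target genes had a median of -0.04 and no unadjusted p under 0.05.

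Genes of mature thymocytes had no member past the threshold. The list of single-positive and egress genes had 13 of 17 tested members above 0, with a median of 0.10, against 0.01 over all genes. It held Itgb7 and Gimap6 at an unadjusted p under 0.05, beside 4.2% of all genes higher in HT at that p. Its mean level lay apart in the 2 groups, which held for this list and no other of the 32, that is for 1 of 32 lists beside 2.5% of single genes. It was 10.39, 10.46, 10.38 and 10.36 in HT thymus, against 10.28, 10.34, 10.24 and 10.32 in WT thymus, so that the nearest arrays almost met. The list was chosen with earlier results of these data known. Its members Itgb7, S1pr1 and Gimap3 also passed between KO and WT thymus, which shares the WT arrays, so the separation is no independent support. Itgb7, the integrin chain that pairs with alpha E or alpha 4, read 8.58, 8.61, 8.26 and 8.20 in HT thymus, against 8.19, 8.22, 7.68 and 7.52 in WT thymus. Within each sex both HT arrays exceeded both WT arrays. Gimap6, a GTPase of lymphocyte survival, differed by 0.23 and S1pr1, the receptor that guides egress, by 0.27, whereas Klf2, Ccr7 and Il7r differed by -0.06, 0.0014 and -0.01. The list's median was 0.07 to 0.14 with any single array left out. In bulk RNA, more cells of a type and more RNA per cell cannot be told apart.

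Genes of earlier thymocytes had medians nearer to 0. Double-positive genes had 13 tested members with a median of -0.02, and double-negative genes 13 with a median of -0.015. Arpp21, a double-positive RNA-binding protein, read 12.25, 12.41, 11.05 and 11.10 in HT thymus, against 12.43, 12.71, 11.66 and 12.11 in WT thymus. Of 15 genes of the CD3 complex and proximal receptor signalling, Cd3g had the only unadjusted p under 0.05, at 13.81 to 13.95 in HT and 13.50 to 13.71 in WT arrays, while Cd3d, Cd3e and Cd247 differed by 0.10, 0.09 and 0.05. Proliferation genes mostly had differences below 0. Of 20 DNA replication genes 3 were above 0, with a median of -0.08, and of 21 mitosis genes 2 were above 0, also with a median of -0.08. Tyms, which makes thymidylate, differed by -0.33, and the mitotic genes Bub1, Kif11 and Nusap1 by -0.22, -0.21 and -0.20. The mean level of the mitosis list overlapped between the groups, at 11.19, 11.46, 11.30 and 11.06 in HT thymus, against 11.37, 11.39, 11.23 and 11.42 in WT thymus. Without HT F_01 and WT M_02 together, 12 of the 21 mitosis genes were above 0 and the median was 0.02.

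Several lists of markers for other cell types had larger medians than any thymocyte list, and also varied more between arrays of 1 genotype. All 16 thymic epithelium markers tested had a difference above 0, with a median of 0.40. Of these, 5 had an unadjusted p under 0.05 (Krt5, Krt8, Krt18, Dll4 and Ctsl), beside 4.2% of all genes higher in HT at that p. None of the markers passed the threshold. Krt8, a keratin of cortical epithelium, read 9.38, 8.57, 4.68 and 5.15 in HT thymus, against 8.60, 6.91, 4.33 and 4.70 in WT thymus. In each sex the highest value was from an HT array, and the 2 sexes were further apart than the genotypes. Dll4, the Notch ligand of the epithelium, read 4.12 to 4.38 in HT and 3.92 to 4.08 in WT arrays. The list's mean level was 8.67, 8.02, 6.33 and 6.53 in HT thymus, against 8.13, 7.34, 6.17 and 6.18 in WT thymus. The defining gene Foxn1 and the keratin Krt14 were below the filter. The summed intensity was 7837 to 26240 in HT and 7028 to 17600 in WT arrays. Without WT F_02 the list's median was 0.26 and none of the 16 had an unadjusted p under 0.05, and without WT F_01 it was 0.53.

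All 12 macrophage and dendritic cell markers tested had a difference above 0 as well, with a median of 0.315. The complement genes C1qa, C1qb and C1qc, which macrophages make, differed by 0.96, 0.51 and 0.59. C1qa read 9.14, 8.89, 7.67 and 8.01 in HT thymus, against 8.56, 8.22, 6.37 and 6.73 in WT thymus, so that HT lay above WT within each sex. Its limma adjusted p was 0.699. The summed intensity of the list was 1912 to 5313 in HT and 1032 to 3559 in WT arrays, and its median was 0.20 without HT F_01. The list's mean level overlapped between the groups, also within males, where HT M_02 was at 6.122 and WT M_02 at 6.136. Fibroblast and pericyte markers had 12 of 15 above 0 and a median of 0.16, with 1 array, HT F_01, at a mean level of 5.81 beside 4.44 to 5.04 in the other HT and 4.52 to 5.05 in the WT arrays. Without HT F_01 their median was -0.01. Neutrophil markers had the opposite sign, with 0 of 10 above 0 and a median of -0.645. Their mean level was 6.51, 5.51, 6.84 and 6.08 in HT thymus, against 7.36, 6.37, 6.01 and 7.64 in WT thymus, and the groups overlapped. Without WT M_01 the neutrophil median was -1.13 and without WT F_01 it was -0.30. The 4 adipocyte markers tested were all above 0, with a median of 0.372 and HT F_01 again highest, at a mean level of 5.02. B cell markers had a median of -0.07 and endothelial markers of -0.06. The part of these other cells in the differences of single genes was not tested.

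**Figure D4:**
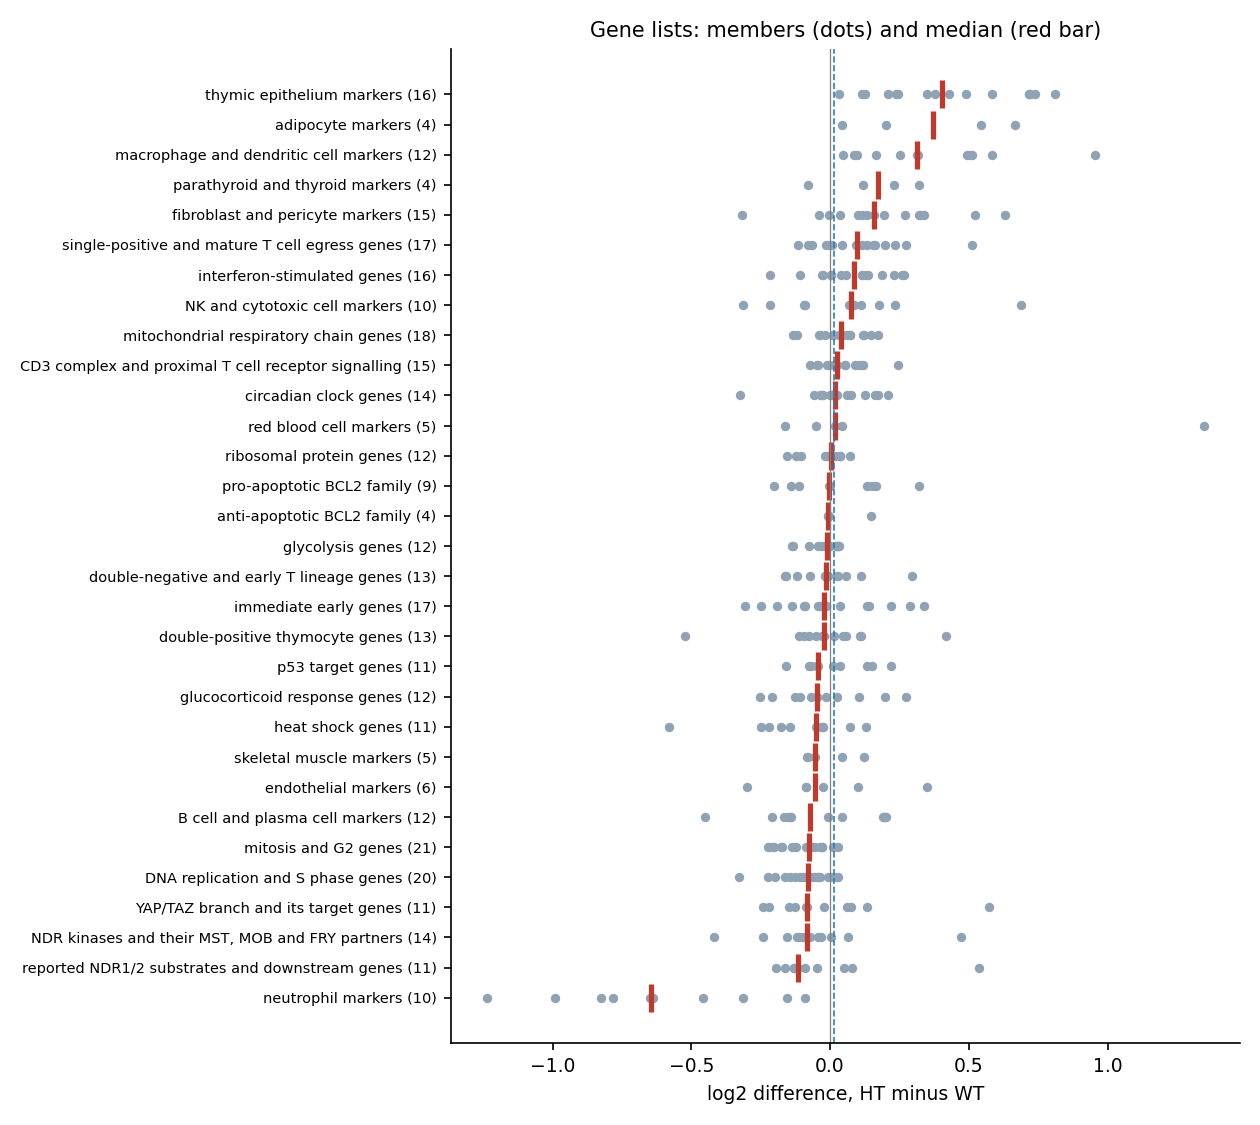
Log2 difference of HT minus WT thymus for the tested members (grey dots, number in brackets) and the median (red bar) of 31 gene lists, ordered by median, with the median of all genes as a dashed line. Thymic epithelium markers, at 0.40, and macrophage and dendritic cell markers, at 0.315, have every member above 0, and neutrophil markers, at -0.645, have none.

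**Figure D5:**
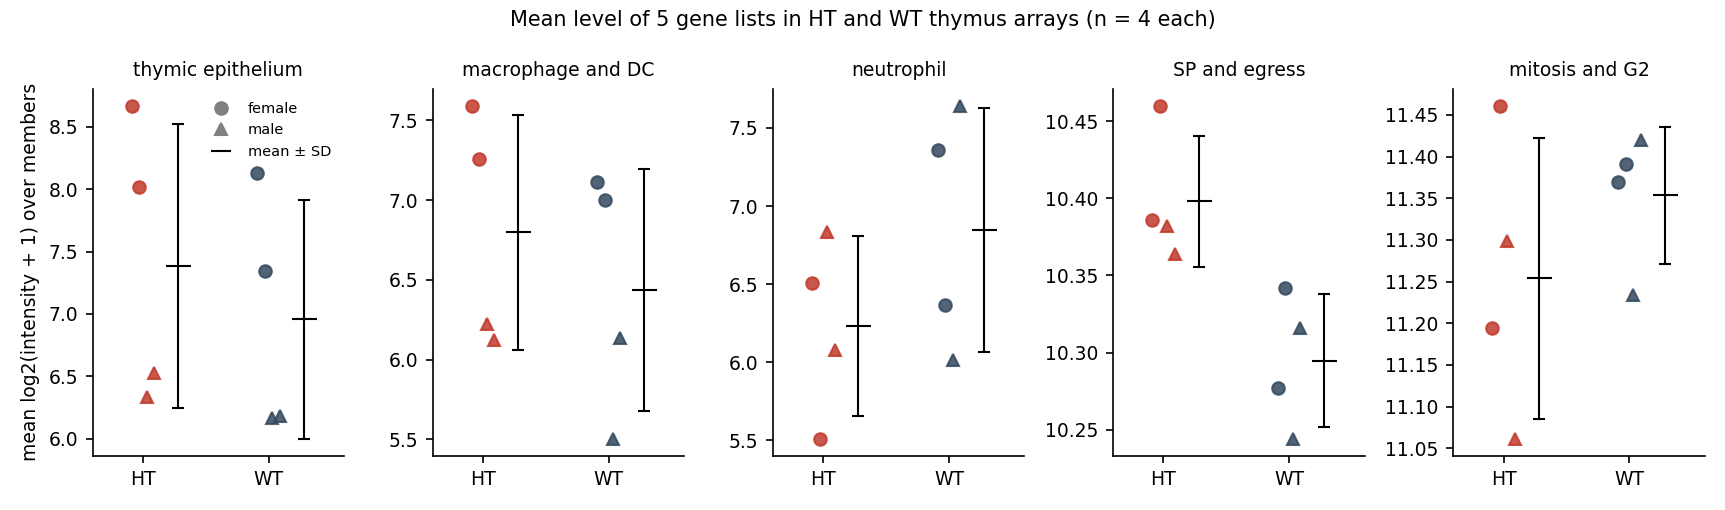
Mean log2(intensity + 1) over the tested members of 5 gene lists in each of the 4 HT arrays (red) and 4 WT arrays (blue), with circles for females, triangles for males and a bar for the mean ± SD. SP means single-positive and DC dendritic cell. The groups are apart only for the SP and egress list, and females lie above males in the epithelium and macrophage lists of both genotypes.

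Lists of general cell functions lay near 0. The medians were 0.004 for ribosomal proteins, 0.04 for the mitochondrial respiratory chain, -0.01 for glycolysis, -0.05 for heat shock, -0.02 for immediate early and -0.05 for glucocorticoid response genes, and 0.085 for interferon-stimulated genes. None of their members passed the threshold. Among immediate early genes, Egr2 and Egr3, which follow receptor signalling in thymocytes, differed by -0.19 and -0.31, and Ier3 by 0.34. Per3 of the circadian clock read 3.80 to 3.99 in HT and 4.03 to 4.40 in WT arrays, close to the filter's cutoff.

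No gene passed a test for a difference between the sexes in the effect of genotype. The interaction of genotype with sex passed the threshold for 0 genes (0%) in limma, with a smallest adjusted p of 0.988. Of 13644 genes, 584 had an unadjusted interaction p under 0.05, no more than so many tests would give without any interaction. Nr4a1, an early target of receptor signalling, had one of the smallest p-values. Its HT minus WT difference was -0.58 in females and 0.65 in males. BC048507 and Tatdn2 also had more positive differences in males, whereas B9d1, Apold1 and Srxn1 had more positive ones in females.

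Some of the 26 genes that passed between KO and WT thymus are set beside their HT values here. Both comparisons use the same WT arrays, so a shared direction says nothing on its own. Of the 26, 16 lie on chromosome 17. Eme2, a subunit of a DNA structure-cutting nuclease near Gnptg and Baiap3, had 6.49 to 7.46 in HT arrays and 7.12 to 7.70 in WT arrays, differing by -0.55 in HT and -2.09 in KO. The zinc finger gene Zfp994 differed by -0.61 in HT and -2.36 in KO. At the main probe set, Zfp945 differed by 2.09 in HT and 2.71 in KO. Anks1 stood at -0.71 in HT and -1.83 in KO, and Nron at 1.28 in HT and 1.12 in KO.

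The same contrast was read in tumors, whose arrays were left out of the thymus fit. The tumor arrays did share in the normalization, the choice of main probe sets and the filter on low values, so this reading is not fully independent. Of 7 genes tested between 7 HT and 5 WT tumors, none passed a two-sided exact permutation test after adjustment over the 7. Sex had no part in this test, although the WT tumors were all female and the HT tumors included a male. Zfp945 read 5.69 to 8.47 with a median of 7.66 in HT tumors, against 5.47 to 7.57 with a median of 6.13 in WT tumors (difference 1.11, exact permutation p = 0.0972, adjusted p = 0.34). Baiap3 had medians of 7.67 in HT and 7.79 in WT tumors, and Nron of 4.66 in HT and 4.46 in WT tumors. Stk38 differed by -0.37 (exact permutation p = 0.418), and Slc49a4 and Hspbap1 by 0.09 and 0.52. Slc15a2 had the opposite sign to that in thymus, at 3.53 to 11.27 with a median of 9.03 in HT tumors, against 3.59 to 5.46 with a median of 3.83 in WT tumors (exact permutation p = 0.0152, adjusted p = 0.106).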

How the data were processed

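RNA was measured on single-colour Affymetrix arrays. The authors deposited linear intensities that GCRMA had normalized, per the submitters' processing notes (version not given in the sources used here). All 31 arrays share 1 distribution, with a median intensity of 20, so tumor arrays helped to set the thymus values. The labels name a labelling kit for whole-transcript arrays. Precision is limited by the number of arrays.

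Of 45101 probe sets, 34957 named 1 gene, 932 several and 9211 none, and 1 had no value. Symbols were updated and placed through RefSeq (GRCm38.p6), which held 99.4% of them. Values became log2(intensity + 1). Each gene was read at its probe set of highest mean, above the 25th percentile of gene means (3.65). The 12 thymus arrays were fitted with limma 3.58.1 in R 4.3.3 (genotype and sex, eBayes, Benjamini-Hochberg over all genes, threshold 0.05). The fit was tested on simulated data. After removal of sex means, same-numbered HT and WT arrays had a correlation of 0.115 in females and 0.164 in males. With so few arrays, this removal leaves those of a sex and genotype as mirror images. The value is then the same for each number of a sex and cannot show whether same-numbered arrays belong together. The best partner of HT F_02 was WT F_01. The numbers were treated as pairs in 1 alternative.

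The named genes were Stk38, Stk38l and Bcl2l11, those past the threshold, the 12 smallest p-values per direction, 5 tested neighbours on each side of Stk38, the 6 smallest p-values of chromosome 17, up to 3 genes per list, all NDR genes and the extremes of the interaction. Members and lists were chosen with earlier results of these data known.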

Additional observations from a re-analysis of the deposited data

Results flagged for a closer look

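In 9 of 184 groups of 4 arrays tested (92 named genes in HT and WT thymus), 1 array lay far from the other 3 by Dixon's criterion, which chance meets in about 1 in 20 groups. In HT thymus, Slc15a2 was 10.92 in F_02 beside 3.79 to 4.39 in the others, Nron was 8.33 in M_02 beside 7.87 to 7.94, and Zfp40 was 7.54 in M_01 beside 7.92 to 7.99. Telo2 was 6.90 in HT M_01 beside 6.64 to 6.67, and Zfp994 was 6.72 in HT M_02 beside 6.34 to 6.37. In WT thymus, Cd3g was 13.50 in M_01 beside 13.68 to 13.71. The array WT M_02 was the distant one for Nusap1 (12.72 beside 12.32 to 12.37), Brpf3 (8.38 beside 8.70 to 8.73) and Fryl (11.10 beside 11.25).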

How the results depend on the processing

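The count of 3 genes past the threshold was 1 in the fit of the 8 HT and WT arrays, 1 without a sex term and 1 over all 33825 probe sets tested with a value, and it lay between 1 and 3 with any single array left out. It was 2 to 4 in the remaining alternatives. With the replicate block it stayed at 3, and the block changed no call named in the text. The interaction count was 0 in each of its alternatives. For the Stk38 signal, permuting within sex left the difference at -0.419 with its smallest possible p of 0.0556, and the other probe sets gave -0.0221 and -0.0014. With single arrays left out it ranged from -0.477 to -0.362, and p was 0.0571 without HT M_01 or HT M_02. Over 92 named genes and 23 alternatives (2094 values), 21 calls were lost, 1 was gained and 1 reversed, and 17 genes changed sign in at least 1 alternative. The reversal was Zfp945, at -0.789 with an adjusted p of 0.718 at the probe set brightest over the 8 HT and WT arrays. The all-probe-set fit, the choice of probe sets by the 8 HT and WT arrays and the removal of HT F_01 with WT M_02 were chosen after seeing the data, as were the tumor arrays and the repeats for the stretch before Stk38. With 4 arrays a group, even differences well above the median standard error of 0.111 could miss the threshold. Stk38 did so at -0.419, with a standard error of 0.096 and a limma adjusted p of 0.484. Probe sets near the floor, below about 4, carry little signal over background.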
